A study of Mus musculus with 6 samples.

Results

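The classical SR proteins are splicing factors that bind exonic RNA through RNA recognition motifs and contact the spliceosome through a tail rich in arginine-serine dipeptides, the RS domain. The 10 genes Srsf1, Srsf2, Srsf3, Srsf4, Srsf5, Srsf6, Srsf7, Srsf9, Srsf10 and Srsf11 were taken by name from a total RNA count table of 42450 listed genes. Earlier results of these data were known when the family was chosen. All 10 were among the 18905 genes that passed the filter on low counts. The table compared male mouse embryonic stem cells (ESC) of the line E14tg2a.4 (WT, n = 3) with Srrm2+/- cells (n = 3), which derive from E14tg2a.4 and carry a gene-trap truncation in 1 allele of Srrm2. Both lines were grown in medium with serum and leukemia inhibitory factor (LIF). Before collection they were moved to serum-free medium with LIF, and no other treatment was applied. The Srrm2+/- cells are 1 gene-trap line (CG0630), and per the study's methods its 3 frozen batches were taken at other passage numbers than those of WT, so genotype, line and passage cannot be told apart.

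SRRM2 is a large RS-domain protein and a scaffold of nuclear speckles, the bodies in which SR proteins gather when they are not at sites of transcription. SR proteins promote inclusion of exons to which they bind, and several also accompany mRNA to the cytoplasm. Their activity and location depend on phosphorylation of the RS domain by CLK and SRPK kinases. Many SR genes regulate their own level by splicing in an exon with a premature stop codon, a poison exon, which sends the transcript to nonsense-mediated decay (NMD). The comparison asks how transcript levels of this family stood in cells with a lowered dose of Srrm2.

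The coding sequences below show how unequal the RS domains of the family are. They are the 20-codon stretches with the most arginine-serine pairs in Srsf1, Srsf3, Srsf7 and Srsf9, shown because the pairs Srsf3 with Srsf7 and Srsf1 with Srsf9 are compared further on. Arginine codons are in capitals, and sequences come from GENCODE release M21 transcripts.
Srsf1 codons 204 to 223: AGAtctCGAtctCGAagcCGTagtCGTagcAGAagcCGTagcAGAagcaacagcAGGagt
Srsf9 codons 182 to 201: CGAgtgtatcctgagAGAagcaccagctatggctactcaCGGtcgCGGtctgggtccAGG
Srsf3 codons 140 to 159: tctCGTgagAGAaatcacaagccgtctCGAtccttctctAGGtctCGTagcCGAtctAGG
Srsf7 codons 192 to 211: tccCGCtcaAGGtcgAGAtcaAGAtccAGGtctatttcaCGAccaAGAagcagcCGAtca

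Adjacent arginine and serine codons, in either order, occurred 17 times in the stretch of Srsf1 but 6 times in that of Srsf9. Over the whole coding sequence, Srsf9 had 4.05 such pairs per 100 codons, the lowest density of the family, and Srsf2 had 23.5, the highest. Srsf7 lay next to the top with 23.1, and Srsf3 had 15.2. Srsf4 had the most pairs, 106 in 491 codons.

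Poison exons were read from the same annotation, as exons of NMD transcripts that carry the stop codon and overlap no exon of a protein-coding transcript. Other transcript types, such as retained introns, were not checked for these exons. The bases from the exon's first position to the stop are given, with the stop in capitals, for Srsf7 and Srsf9, the members that passed the test, and for Srsf3, the closest relative of Srsf7. On GRCm38 these exons lie at chr17:80204622-80205081 on the minus strand (Srsf7), chr5:115328347-115328704 on the plus strand (Srsf9) and chr17:29039454-29039909 on the plus strand (Srsf3).
Srsf7 poison exon: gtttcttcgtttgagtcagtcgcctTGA
Srsf9 poison exon: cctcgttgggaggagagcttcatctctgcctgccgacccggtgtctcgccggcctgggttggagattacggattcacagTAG
Srsf3 poison exon: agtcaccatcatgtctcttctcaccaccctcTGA

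In the Srsf7 exon the stop ended 28 bases into an exon of 460 bases, in Srsf3 34 bases into 456, and in Srsf9 82 bases into 358. The annotation gave an NMD transcript to 9 of the 10 family members, all but Srsf10, and to 26.5% of 14704 protein-coding genes tested. The deposited values are sums over all transcripts of a gene, so coding and decay transcripts cannot be told apart in what follows.

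Libraries held 54151433 to 69933421 estimated counts, and single family members 1638 to 53690 counts per library. Levels are given as CPM, counts scaled to the size of the library after TMM normalization. A gene is called, and said to have risen or fallen, at an adjusted p below 0.05 in edgeR's quasi-likelihood test over all 18905 genes. Srrm2 itself was 91.2, 98.3 and 97.7 CPM in WT and 62.3, 56.2 and 59.6 CPM in Srrm2+/-, or 62.0% of WT (log2 fold change -0.69, SE 0.050, edgeR adjusted p = 2.38e-05), so all 6 libraries stood as labelled. Of 6 ESC markers, 5 fell and Pou5f1 did not pass the test (847 against 824 CPM), and their summed level was 3023 to 3125 CPM in WT and 2448 to 2561 CPM in Srrm2+/-. Of 5 tested fibroblast markers 3 rose, all collagen genes, with sums of 3.36 to 3.63 CPM in WT and 6.47 to 9.85 CPM in Srrm2+/-. Thy1, the highest of the 5 in WT, went the other way without a call (1.93 against 1.19 CPM, edgeR adjusted p = 0.0939). Pdgfrb was also not called, and Dcn and Lum had at most 4 counts in any library. Trophoblast markers (1 of 4 tested higher, 1 lower) summed to 52.0 to 52.9 against 32.0 to 35.2 CPM, a sum carried by Tfap2c (50.6 against 30.8 CPM), while Eomes rose from 0.567 to 0.987 CPM, and neural markers (1 of 4 higher, 2 lower) to 80.4 to 86.7 against 58.4 to 60.8 CPM. No primitive endoderm marker of 4 tested was called (sums of 1.79 to 2.08 and 1.47 to 1.90 CPM). In bulk RNA, fewer cells of a state and less RNA per cell cannot be told apart, and the part of these shifts in the levels below was not tested.

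Transcripts of the SR family in Srrm2+/- cells stood at 84.1% to 113% of their WT level. Srsf7 fell to 84.1% of WT and Srsf9 rose to 113% of WT, and the other 8 members did not pass the test. The called share of the whole table was 25.3% (13.6% higher and 11.7% lower), and 33.7% of the 4915 genes at or above 31.9 CPM, the mean of the lowest member. The 2 calls among 10 members therefore did not exceed the background. The median log2 fold change of the members was -0.044, with 6 below 0 and 4 above, and that of all genes tested was -0.0025. In absolute size the median was 0.089 for the members, 0.10 for genes at or above 31.9 CPM and 0.19 for all genes tested. No member changed by more than 0.25 on the log2 scale, a size that 17.2% of genes at or above 31.9 CPM exceeded.

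**Figure D1:**
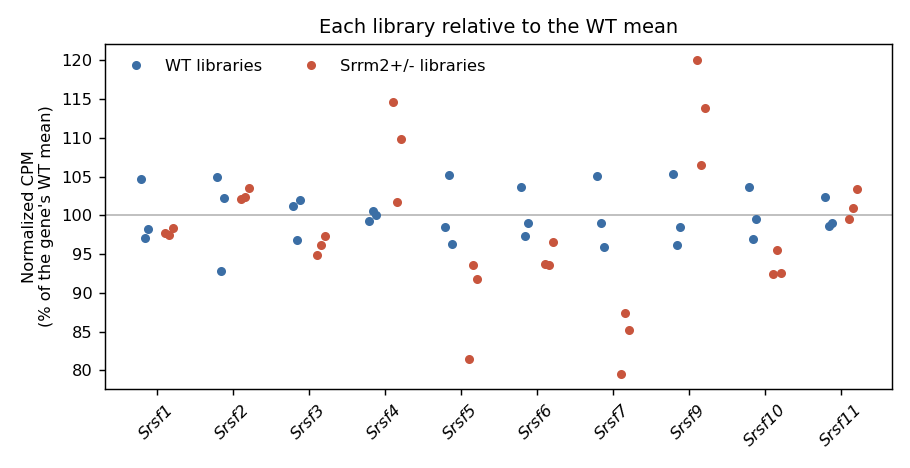
Level of each SR gene in each library as a percentage of its WT mean, with WT and Srrm2+/- libraries as separate points. Srsf7 reaches 79.6% in Srrm2+/- replicate 1 and Srsf9 reaches 120% in the same library, while Srsf1, Srsf2, Srsf3 and Srsf11 overlap between the groups.

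Srsf7 encodes an SR protein with a zinc knuckle beside its RNA recognition motif, and it takes part in mRNA export and in the choice of polyadenylation sites. WT libraries held 93.5, 88.1 and 85.4 CPM of Srsf7, and Srrm2+/- libraries 70.8, 77.8 and 75.8 CPM. Every Srrm2+/- library lay below every WT library. On the log2 scale Srsf7 changed by -0.25 (SE 0.051, edgeR adjusted p = 0.00672), with a 95% interval of 77.6% to 91.0% of WT. Without Srrm2+/- replicate 1, the lowest library, it was -0.21, and the call held. A larger absolute change was seen in 42.0% of all genes tested.

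Srsf3, the smallest member with 164 codons, shares with SRSF7 its role as an adaptor of the export receptor NXF1. Its level was 585 to 616 CPM in WT and 573 to 588 CPM in Srrm2+/-, and the groups overlapped. At 96.2% of WT (95% interval 90.6% to 102%) Srsf3 was not called (log2 fold change -0.057, edgeR adjusted p = 0.329). Both genes lie on chromosome 17 with Srrm2, Srsf3 at 5.21 Mb from it and Srsf7 at 56.4 Mb. Within a library, the ratio of Srsf3 to Srsf7 counts was 6.53, 6.64 and 7.21 in WT and 8.09, 7.46 and 7.76 in Srrm2+/-. The ratio was higher in every Srrm2+/- library than in any WT library, by 0.19 on the log2 scale.

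Srsf9 encodes an SR protein with a short RS domain. It was measured at 40.7, 37.2 and 38.0 CPM in WT and at 46.4, 41.2 and 44.0 CPM in Srrm2+/-. The groups did not overlap, although WT replicate 1 and Srrm2+/- replicate 2 differed by less than 1 CPM. Its log2 fold change was 0.18 (SE 0.058, 95% interval 104% to 124% of WT) and passed the threshold narrowly (edgeR adjusted p = 0.0487). The call was lost without WT replicate 2 (adjusted p = 0.136), WT replicate 3 (0.121), Srrm2+/- replicate 1 (0.146) or Srrm2+/- replicate 3 (0.121), with a log2 fold change of 0.14 to 0.18 in these 4 fits. The call of Srsf9 thus depended on which libraries entered the fit.

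Srsf1, the founding member of the family and the closest relative of Srsf9, has roles in splicing, NMD and translation. It had 771 to 831 CPM in WT and 774 to 781 CPM in Srrm2+/-, with overlap. The Srrm2+/- level was 97.8% of WT (95% interval 91.7% to 104%, edgeR adjusted p = 0.639). The ratio of Srsf1 to Srsf9 was 20.4, 20.7 and 20.5 in WT and 16.7, 18.8 and 17.8 in Srrm2+/-. It was lower in all 3 Srrm2+/- libraries, by a log2 difference of -0.21.

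**Figure D2:**
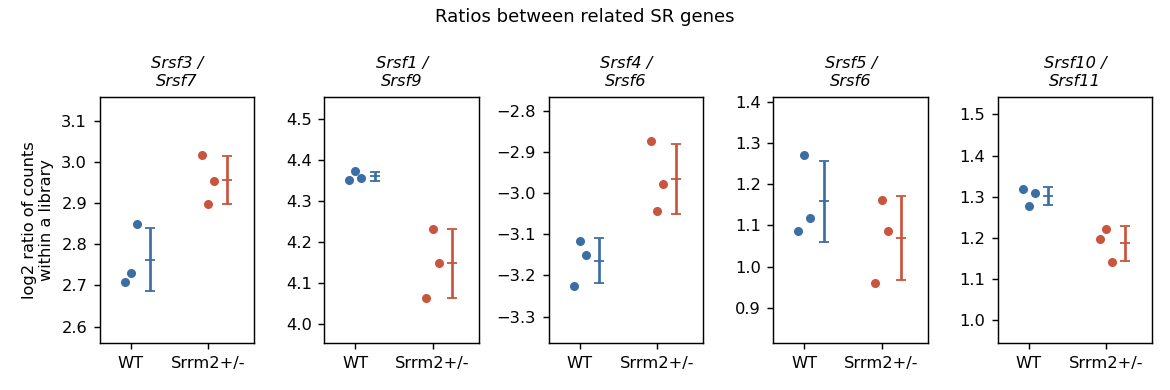
Log2 ratio of estimated counts between related SR genes in each library, for 5 pairs. WT and Srrm2+/- libraries are separate points, with bars for the group mean and SD. The Srsf1 to Srsf9 log2 ratio lies at 4.35 to 4.37 in WT and at 4.06 to 4.23 in Srrm2+/-. The Srsf5 to Srsf6 log2 ratio overlaps between the groups.

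Srsf4, Srsf5 and Srsf6 encode SR proteins with a pair of RNA recognition motifs and long RS domains. Srsf5 was 603, 644 and 589 CPM in WT and 499, 573 and 562 CPM in Srrm2+/-. The groups did not overlap, and Srrm2+/- replicate 1 was the lowest library. Srsf5 stood at 89.0% of WT (95% interval 81.0% to 97.8%) and was not called (edgeR adjusted p = 0.0720), with a log2 fold change of -0.17 and an SE of 0.060. Without Srrm2+/- replicate 1 its log2 fold change was -0.11. DESeq2 called it, with the same log2 fold change and an adjusted p of 0.0137.

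Srsf4, the member with the lowest counts, was 30.4, 30.8 and 30.6 CPM in WT and 35.0, 31.1 and 33.6 CPM in Srrm2+/-. The Srrm2+/- libraries were all above WT, but Srrm2+/- replicate 2 only by a small margin. At 109% of WT (95% interval 99.8% to 118%) Srsf4 was not called (log2 fold change 0.12, SE 0.054, edgeR adjusted p = 0.144). Srsf6 had 267 to 284 CPM in WT and 256 to 265 CPM in Srrm2+/-, without overlap, and was not called (94.6% of WT, 95% interval 88.8% to 101%, edgeR adjusted p = 0.184). The ratio of Srsf4 to Srsf6 was 0.107, 0.115 and 0.113 in WT and 0.136, 0.121 and 0.127 in Srrm2+/-, a log2 difference of 0.20 without overlap. The ratio of Srsf5 to Srsf6 was 2.12, 2.41 and 2.17 against 1.94, 2.24 and 2.12, with overlap and a log2 difference of -0.090.

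Srsf10 encodes a protein that represses splicing when dephosphorylated, as in mitosis and after heat shock. It was 401, 375 and 385 CPM in WT and 357, 369 and 358 CPM in Srrm2+/-, without overlap. Its level of 93.5% of WT (95% interval 87.7% to 99.6%) did not pass the adjusted test (log2 fold change -0.097, SE 0.040, edgeR adjusted p = 0.117). Srsf11, an RS protein that contacts splice-site factors, had 155 to 161 CPM in WT and 156 to 162 CPM in Srrm2+/- and overlapped widely (101% of WT, 95% interval 95.6% to 107%, edgeR adjusted p = 0.770). The ratio of Srsf10 to Srsf11 was 2.49, 2.42 and 2.48 in WT and 2.29, 2.33 and 2.20 in Srrm2+/-. This was lower in every Srrm2+/- library, by a log2 difference of -0.12.

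Srsf2, which binds exonic enhancers and also acts in transcriptional pause release, had 235 to 266 CPM in WT and 259 to 262 CPM in Srrm2+/-. Its level was 103% of WT (95% interval of the log2 fold change -0.075 to 0.15, edgeR adjusted p = 0.642), with overlap. The intervals of Srsf1, Srsf2, Srsf3, Srsf6 and Srsf11 reach no lower than 88.8% of WT, for Srsf6, and no higher than 111%, for Srsf2. A missed threshold does not show that their levels were equal.

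Of the 5 ratios, 4 did not overlap between the groups, and each of these 4 gave p = 0.1 in the two-sided exact permutation test over libraries, the smallest p that 3 libraries against 3 can give. Adjusted over the 5 pairs this was 0.125. The Srsf5 to Srsf6 ratio gave an exact p of 0.5. This test can therefore not reach 0.05 for any ratio with 3 libraries per group. The sign of each difference stayed the same when any library was left out.

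**Figure D3:**
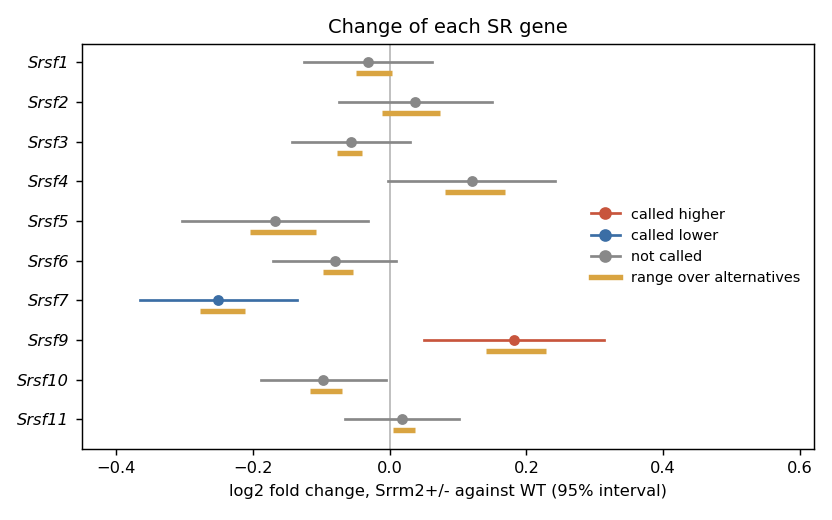
Log2 fold change (Srrm2+/- over WT) of each SR gene from edgeR, with called genes marked. The thin line through each point is the 95% interval. The thick line below it is the range of the log2 fold change over the alternative analyses. The interval of Srsf7 runs from -0.37 to -0.14 and that of Srsf9 from 0.051 to 0.31, while those of 6 other members cross 0.

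Groups did not overlap for 6 of the 10 members (Srsf4, Srsf5, Srsf6, Srsf7, Srsf9 and Srsf10), against 41.4% of all genes tested. That share was not computed for genes at or above 31.9 CPM, so an excess in the family cannot be read from it. Of these 6 members, 4 were lower and 2 higher in Srrm2+/-. Spread within groups was small, with a coefficient of variation of 0.447% to 7.34% for a member in a single group. Pooled over both groups, its median was 3.70% for the members, close to the 3.84% of genes at or above 31.9 CPM.

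The family sum was 3321, 3187 and 3208 CPM in WT and 3029, 3121 and 3131 CPM in Srrm2+/-. The Srrm2+/- sums were all lower, at 95.5% of WT in the mean. As a share of all estimated counts, the family took 0.324% ± 0.0141 (SD, n = 3) in WT and 0.309% ± 0.00853 (SD, n = 3) in Srrm2+/-. On this scale the groups overlapped, with 0.317% in Srrm2+/- replicate 3 and 0.315% in WT replicate 2. Srsf1 held the largest part of the family's counts, 24.5% in WT and 25.1% in Srrm2+/-. Srsf5 held 18.9% and 17.6%, and Srsf4 the smallest part, 0.944% and 1.07%.

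Levels of different genes were compared per kilobase of annotated exon sequence. In WT, Srsf5 was highest at 153 ± 7.15 CPM per kb (SD, n = 3), followed by Srsf1 at 139 ± 5.71 CPM per kb. Srsf2 (85.6), Srsf3 (76.4), Srsf6 (57.0) and Srsf10 (55.2 CPM per kb) came next. Srsf7 (25.1 ± 1.17), Srsf9 (23.4 ± 1.11), Srsf11 (18.6 ± 0.391) and Srsf4 (8.58 ± 0.0553 CPM per kb) were lowest. The neighbours Srsf6 and Srsf10, and Srsf7 and Srsf9, overlapped in WT. In Srrm2+/- the Srsf9 level was 26.5 ± 1.59 and that of Srsf7 21.1 ± 1.01 CPM per kb, so the order of these 2 genes was exchanged and their libraries no longer overlapped, while Srsf5 (137) and Srsf1 (136 CPM per kb) overlapped.

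The order depends on the length used, since retained introns lengthen the exon sequence of some members. With the mean length of protein-coding transcripts, Srsf3 (231) stood above Srsf2 (157 CPM per kb) in WT, and Srsf11 (90.2) above Srsf7 (53.0 CPM per kb). On that scale Srsf7 (44.6) and Srsf9 (45.5 CPM per kb) were nearly level in Srrm2+/-.

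**Figure D4:**
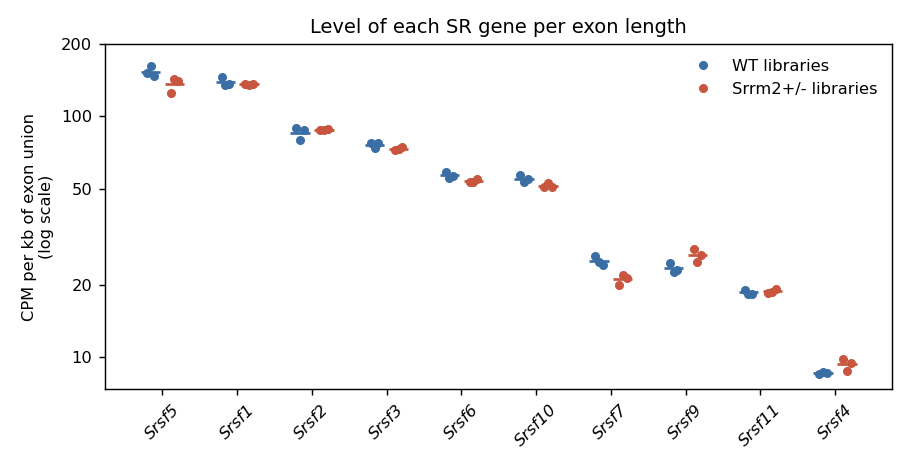
Level of each SR gene in CPM per kilobase of exon sequence on a log axis, with WT and Srrm2+/- libraries as points. Srsf5 and Srsf1 are highest and Srsf4 lowest in both groups, and Srsf9 lies above Srsf7 in Srrm2+/- only.

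Some members overlap other loci or share transcript sequence with them. Srsf2 lies entirely within opposite-strand Mettl23 (947 to 1181 counts per library), and Mfsd11 (487 to 670 counts) overlaps it on the same opposite strand. Srsf4 overlaps the same-strand transcript A930004J17Rik (511 to 662 counts) and the opposite-strand Gm12992 (53 to 127 counts), and 41% of its 31-base transcript words occur in other genes. Antisense Gm11508 at Srsf1 had at most 2 counts. The strand setting of the counting was not given in the sources used here, so reads of Srsf2 and Srsf4 and of their partners may be divided wrongly. Srsf3, Srsf5 and Srsf10 share much sequence with loci elsewhere, the processed pseudogenes Gm9761, Gm12966, Gm5446 and Gm9134 and Gm12355, annotated as protein-coding. These loci had at most 36 counts in any library, and adding them changed no call. Srsf6 and Srsf9 share no 31-base word with another gene, and Srsf7 shares 2.43%.

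The kinases, phosphatases and importer that act on RS domains were listed as 13 genes, of which 1 rose, 1 fell and 11 did not pass the test (median log2 fold change -0.0050). Clk1, a nuclear kinase that releases SR proteins from speckles, was 219, 210 and 209 CPM in WT and 170, 183 and 183 CPM in Srrm2+/-, without overlap. It fell by 0.25 on the log2 scale (SE 0.044, edgeR adjusted p = 0.00294). Clk3, a related kinase, was 5.39, 4.38 and 6.74 CPM in WT and 8.77, 7.74 and 8.25 CPM in Srrm2+/-, and rose by 0.59 (SE 0.15, edgeR adjusted p = 0.0187). Clk3 had low counts, with a coefficient of variation of 21.6% in WT. These 2 kinases of 1 family thus moved in opposite directions. Clk2 and Clk4 of the same family were not called, at 98.8% and 99.7% of WT (edgeR adjusted p = 0.844 and 0.949). The list as a whole was centred near 0. Without WT replicate 1, Srrm2+/- replicate 1 or Srrm2+/- replicate 3 in turn, 1 of the 13 was called, and without WT replicate 2, 3 were.

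Among 18 other RS-domain and SR-related genes, 5 fell, 1 rose and 12 did not pass the test, with a median log2 fold change of -0.063 and 15 values below 0. Over all genes tested, 11.7% were called lower and the median was -0.0025. The shares below 0 and called lower were not computed for genes at or above 31.9 CPM, so an excess of lower genes cannot be read from this list. Rbm39, a splicing coactivator, averaged 733 CPM in WT (SD 13.1, n = 3) and 642 CPM (SD 8.04, n = 3) in Srrm2+/-, and its log2 fold change was -0.19 (edgeR adjusted p = 0.00487). Luc7l2 (-0.19) and Luc7l3 (-0.18), relatives of a yeast U1 snRNP protein, fell as well, as did Pnn (-0.15), which encodes a speckle protein, and Rsrc2 (-0.13). Rnps1, which encodes a protein of the exon junction region, rose from 104 ± 1.63 to 115 ± 4.71 CPM (log2 fold change 0.15, edgeR adjusted p = 0.0299). The 6 calls dropped to 1 without WT replicate 2 or without Srrm2+/- replicate 1, and to 3 without WT replicate 1, Srrm2+/- replicate 2 or Srrm2+/- replicate 3. With the replicate number as a block, 2 were called.

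Of 11 splice-site factors, 1 fell, the U2AF-related Zrsr2 (61.0 ± 3.32 to 53.6 ± 0.330 CPM, log2 fold change -0.19, edgeR adjusted p = 0.0179), and the median was 0.0030. That call was lost without WT replicate 1, WT replicate 2, Srrm2+/- replicate 2 or Srrm2+/- replicate 3. Of 15 NMD and exon junction genes, 1 rose, the exon junction helicase Eif4a3 (134 ± 0.792 to 150 ± 7.41 CPM, log2 fold change 0.17, edgeR adjusted p = 0.0200), with a median of -0.020. In this list 0 genes were called without WT replicate 3, Srrm2+/- replicate 1 or Srrm2+/- replicate 3, and 2 without WT replicate 1. None of 4 mRNA export genes was called by edgeR, DESeq2 or limma voom, with 0 at an unadjusted edgeR p below 0.05 and a median of -0.022. In every list except that of RS-domain genes, the called share lay below the 25.3% of the whole table, and the 6 of 18 RS-domain genes lay near the 33.7% of genes at or above 31.9 CPM.

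**Figure D5:**
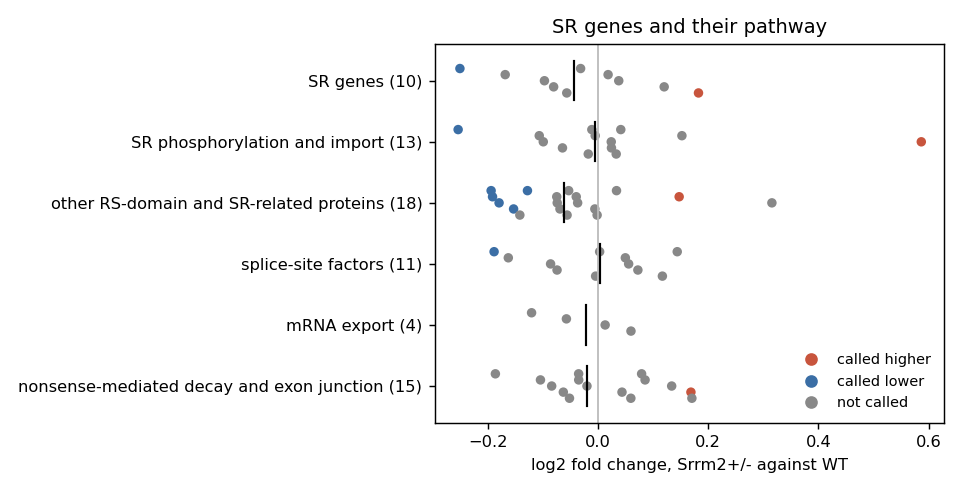
Log2 fold change (Srrm2+/- over WT) of each gene in the SR family and in the 5 lists of related genes, with called genes marked. Clk3 is the highest called value at 0.59 and Clk1 the lowest at -0.25, and most genes lie near 0.

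The genes whose log2 CPM followed Srsf7 most closely over the 6 libraries, among 7060 genes whose log2 CPM averaged 4 or more, were Fsd1l (Pearson r = 0.998), Zfp846 (0.997) and Atm (0.996). Their log2 fold changes were -0.41, -0.28 and -0.35. The 6 points share the contrast of the groups, and 198 genes had an r above 0.95 with Srsf7, so the likeness is a description only.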

How the data were processed

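Total RNA libraries (stranded kit, paired-end) of 3 WT and 3 Srrm2+/- cultures were grouped by their sample titles. The authors pseudo-aligned reads with kallisto 0.46.1 to the GENCODE M24 mouse transcriptome and deposited gene-level estimated counts without normalization. Spike-ins were added to the RNA and were not used here. Library totals were 54151433 to 69933421 estimated counts. For Srsf4 in WT, counting error is at least as large as the spread between libraries.

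Counts were rounded. Genes past filterByExpr (minimum count 10, minimum total 15) were tested with edgeR 4.0.16 (R 4.3.3, TMM, glmQLFit and glmQLFTest, two-sided, genotype only), with Benjamini-Hochberg adjustment over 18905 genes and calls at 0.05. Symbols, coordinates and sequences came from GENCODE M21 on the same build (GRCm38), and 42156 of 42450 identifiers matched. Sequence shared between loci was measured as 31-base words. Ratios were compared by an exact permutation test over libraries.

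The members, gene lists and tests were chosen with earlier results of these data known. Named genes were all 10 members, Srrm2, the called genes of each list (at most 6), the 3 genes most correlated with the most changed called member, and overlapping or copied loci. Clk2 and Clk4 were named beside the called Clk1 and Clk3. Marker genes and the comparison with genes at or above the lowest member are descriptions, and that limit was set after the data were seen. Alternatives were RLE and upper quartile scaling, DESeq2 1.42.0, voom of limma 3.58.1, other filters (1 count over all libraries, or 1 CPM in every library of a group), a call at 0.01, mitochondrial, rRNA and short RNA genes removed, a replicate block, and each library left out. The scripts were tested on simulated counts.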

Additional observations from a re-analysis of the deposited data

How the results depend on the processing

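Srrm2 and Srsf7 were called under all 14 alternatives run for each, with log2 fold changes of -0.72 to -0.65 for Srrm2 and -0.28 to -0.21 for Srsf7. Srsf9 was not called under 6 of 14 (adjusted p of 0.0509 with RLE scaling in edgeR, 0.0539 with limma voom, and the 4 left-out libraries given above), with a log2 fold change of 0.14 to 0.23. Members called numbered 2, and 1 (0 higher) with RLE scaling, with limma voom and at an adjusted p below 0.01, while DESeq2 called 2 lower members because Srsf5 was added. Leaving out 1 library gave 1 to 2 members called, 0 to 1 of them higher. At an adjusted p below 0.01, 2779 genes of the whole table were called (1574 higher and 1205 lower). In the lists of related genes, leaving out 1 library gave 1 to 3 called kinases, phosphatases and importers, 1 to 5 RS-domain genes, 0 to 1 splice-site factors and 0 to 2 NMD and exon junction genes. Among uncalled members, the log2 fold change of Srsf1 was -0.050 to 0.0033 with 1 library left out, above 0 without WT replicate 1, and that of Srsf2 was -0.011 to 0.074, below 0 without WT replicate 2. As a share of protein-coding counts the family took 0.398% in WT and 0.380% in Srrm2+/-. Causes of these shifts were not tested.

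The replicate numbers did not pair the libraries, since deviations from the group means of same-numbered libraries correlated at -0.028, -0.034 and -0.030. With the replicate block, 2 members were called as before (Srsf7 adjusted p = 0.0240, Srsf9 0.0327), as were 2 RS-domain genes in place of 6, and 4166 genes of the whole table in place of 4781. Srrm2+/- is 1 line, so p-values set its difference from WT against the spread among frozen batches within each line. The spread between independent gene-trap clones does not enter them.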
